A study of Mus musculus with 24 samples.

Results

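The acyl-CoA dehydrogenases are described here as 9 genes, taken by symbol from the count matrix of a mouse kidney study: Acadvl, Acadl, Acadm, Acads, Acadsb, Acad8, Acad9, Acad10 and Acad11. The matrix lists 48526 genes, of which 15808 had enough counts to be tested, and 9 of the 9 dehydrogenase genes were among them. The libraries came from renal cortex of 24 mice labelled C57BL/6, with no substrain given, in 4 groups of 6 that cross diabetes with an oral inhibitor: diabetic mice given PMX-53, diabetic mice given vehicle, non-diabetic mice given PMX-53 and non-diabetic mice given vehicle. Diabetes was induced at 6 weeks of age with 5 daily injections of 55 mg/kg streptozotocin, a toxin of the insulin-producing beta cells, whereas the non-diabetic mice received sodium citrate. PMX-53, a peptide that blocks the receptor C5aR1 of the complement fragment C5a, was given at 2 mg/kg in the drinking water, and the vehicle was drinking water alone. The mice were followed for 24 weeks. Streptozotocin models diabetes by loss of beta cells. The study's title concerns C5a, its receptor and mitochondrial metabolism in diabetic kidney disease.

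Acyl-CoA dehydrogenases are flavin enzymes that carry out the first step of each round of mitochondrial fatty acid beta-oxidation, or the matching step in the breakdown of an amino acid. They introduce a double bond into an acyl-CoA and pass the electrons to electron transfer flavoprotein, which hands them on to the respiratory chain. Each member prefers acyl chains of a certain length or branching. The proximal tubule, which makes up most of the renal cortex, is known to draw much of its energy from fatty acid oxidation.

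Libraries held 10964992 to 22000895 counts, and the lowest count of any dehydrogenase gene in any library was 188, for Acad10. The 12 proximal tubule markers examined were detected throughout, with summed levels of 14229 to 19356 normalized CPM (a gene's counts as a rate of all counts, after scaling between libraries) in diabetic PMX-53 mice, 13508 to 16372 in diabetic vehicle mice, 17368 to 21165 in non-diabetic PMX-53 mice and 16673 to 19810 in non-diabetic vehicle mice. Of these markers, 4 rose and 5 fell with diabetes on vehicle. In that comparison 40.3% of all genes tested changed by edgeR's adjusted test, 20.4% higher and 19.9% lower. In the same comparison 7 of 7 markers of principal cells, 5 of 7 of the distal convoluted and connecting tubule and 4 of 6 of intercalated cells rose and none fell. Summed principal cell markers were at 237 to 323 normalized CPM in diabetic PMX-53 mice, 252 to 411 in diabetic vehicle mice, 192 to 303 in non-diabetic PMX-53 mice and 141 to 193 in non-diabetic vehicle mice. In diabetic mice PMX-53 raised 4 of 6 podocyte markers and 13.9% of all genes tested. The part of these markers in the results was not tested. The adipocyte marker Lep had 0 counts in all 24 libraries, and Adipoq and Ucp1 had at most 2 counts in any library. Summed hepatocyte markers were at 10.8 to 21.2 normalized CPM in diabetic PMX-53 mice and 23.9 to 49.1 in diabetic vehicle mice. They were at 12.5 to 18.8 in non-diabetic PMX-53 mice and 17.5 to 46.1 in non-diabetic vehicle mice. Of 4 tested, 2 rose with diabetes on vehicle and 2 fell with PMX-53 in diabetic mice. Their part in the results was not tested. Mitochondrially encoded RNA took 25.9 to 31.9% of the counts in diabetic vehicle libraries and 20.1 to 24.6% in non-diabetic vehicle libraries. The fit was also run with mitochondrially encoded and ribosomal RNA genes removed. It then called 6353 genes for diabetes on vehicle, against 6363, and 4328 for PMX-53 in diabetic mice, against 4317. No dehydrogenase gene gained or lost a call in that fit. Any other part of this RNA in the results was not tested. In RNA from whole cortex, fewer cells of a type and less RNA per cell cannot be told apart. The labels name 24 separate samples without saying how they were collected, so p-values measure the spread between these samples, part of which may be technical.

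Acad10 stood apart from the rest of the family. Its mRNA fell in diabetic vehicle mice to 14.4 ± 2.25 normalized CPM, against 77.5 ± 5.17 in non-diabetic vehicle mice (SD, n = 6 each), and was 64.5 ± 7.91 normalized CPM in diabetic PMX-53 mice. Acads, the short-chain enzyme, showed the same order of groups with smaller differences, while the mRNAs of the long- and medium-chain enzymes Acadvl, Acadl and Acadm were lower in diabetic PMX-53 than in diabetic vehicle mice. With edgeR's quasi-likelihood test and adjustment over the 15808 genes, diabetes on vehicle changed 4 of the 9 genes (1 higher, 3 lower). In that comparison 40.3% of all genes tested were called, 20.4% higher and 19.9% lower. PMX-53 in diabetic mice changed 7 of the 9 (3 higher, 4 lower), where 27.3% of all genes were called, 13.9% higher and 13.5% lower. These 2 comparisons share the diabetic vehicle libraries. For PMX-53 in diabetic mice, 3 to 7 of the 9 were called over the alternatives run. The count was 3 (3 higher) with libraries scaled by their totals alone. It was 3 (1 higher, 2 lower) with only the libraries of the 2 groups in the fit. For diabetes on vehicle, 3 to 6 of the 9 were called over the alternatives run. With libraries scaled by their totals alone, Acad11 lost that call. Acad8 (log2 fold change -0.21), Acadl (-0.21) and Acadm (-0.29) were then called lower, where the median of all genes was -0.095.

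**Figure D1:**
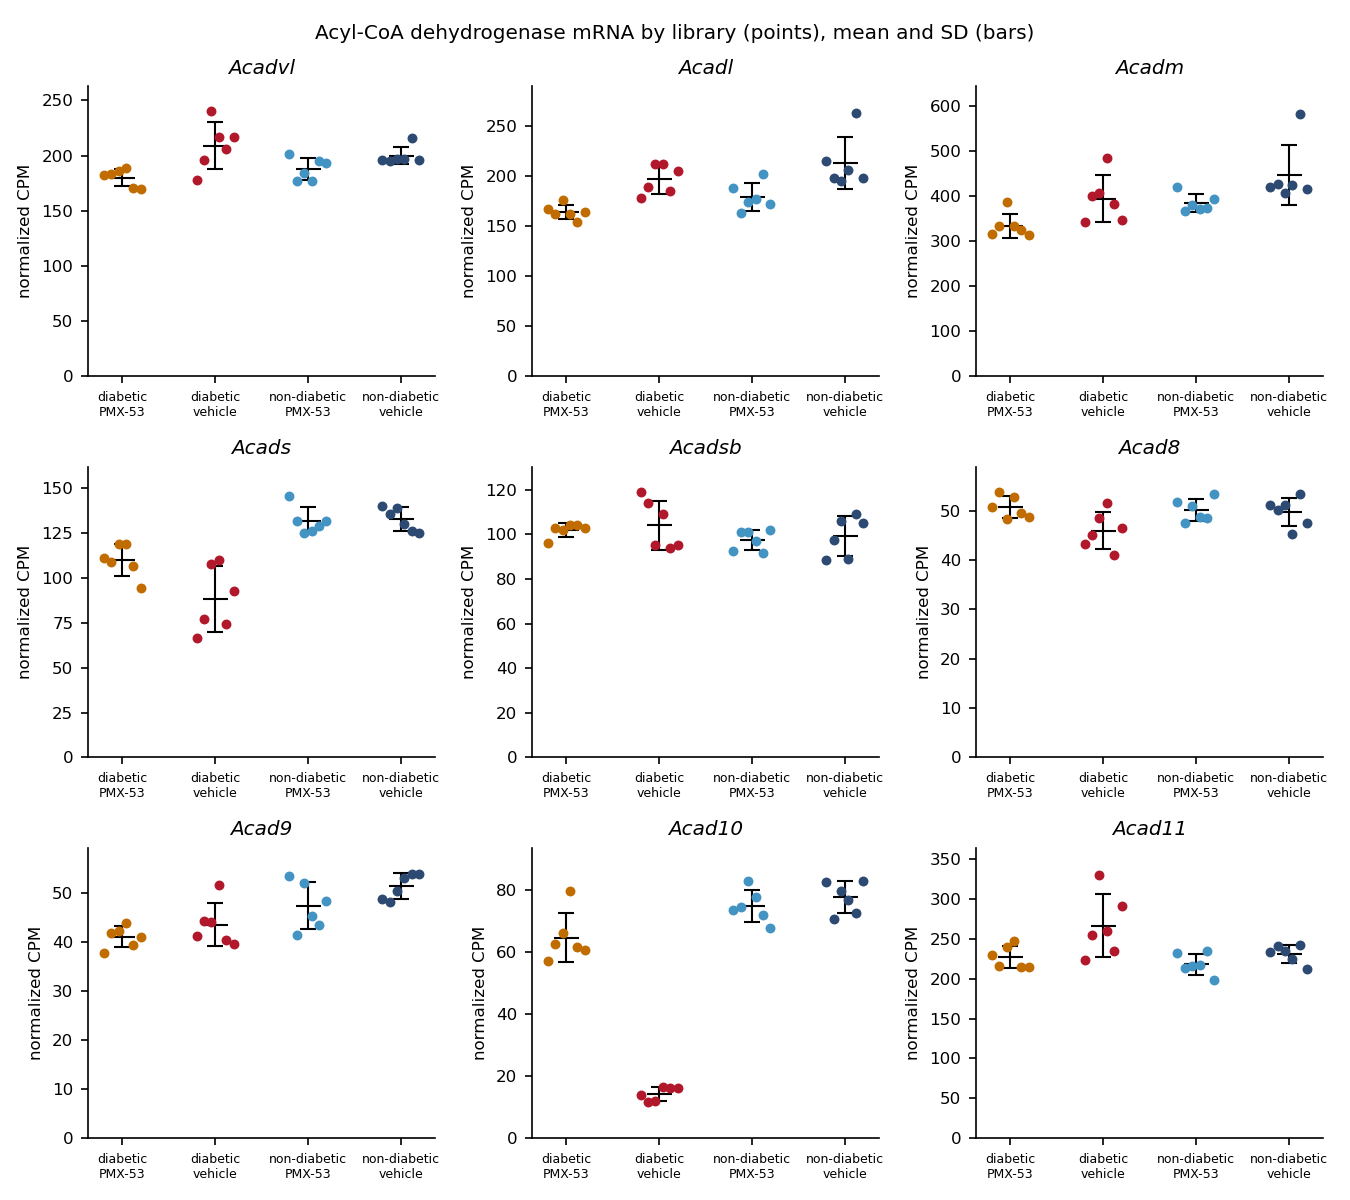
Normalized CPM (y axis, from 0) of the 9 acyl-CoA dehydrogenase genes in each library (points), with the mean and SD of the 6 libraries of a group (bars). Acad10 in diabetic vehicle mice lies between 11.6 and 16.4 normalized CPM, apart from every library of the other groups, whereas Acadsb and Acad8 overlap in all 4 groups.

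Gene levels can be set against each other only per length, and were expressed as FPKM over the union of each gene's annotated exons. In non-diabetic vehicle mice, Acadm had the highest level of the family, 114 ± 17.2 FPKM (SD, n = 6), which was the 98.8th percentile of the genes tested. Acadl followed at 106 ± 12.9 FPKM, and the ranges of both genes overlapped (104 to 149 and 97.2 to 131 FPKM). Acadvl at 74.3 ± 2.97 and Acads at 58.5 ± 2.87 FPKM were each separate from their neighbours in this order. Acad11 was at 23.6 ± 1.17 FPKM. Acadsb at 13.8 ± 1.25, Acad10 at 12.8 ± 0.851 and Acad8 at 12.0 ± 0.686 FPKM had ranges that overlapped from one to the next, and Acad9 was lowest at 6.28 ± 0.313 FPKM, the 69.4th percentile. In diabetic vehicle mice Acad10 averaged 2.37 ± 0.371 FPKM, under the 5.32 ± 0.537 FPKM of Acad9. With the length of the longest transcript in place of the exon union, Acad11 (66.7 FPKM) ranked above Acads (65.6 FPKM), and the other ranks were as given.

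**Figure D2:**
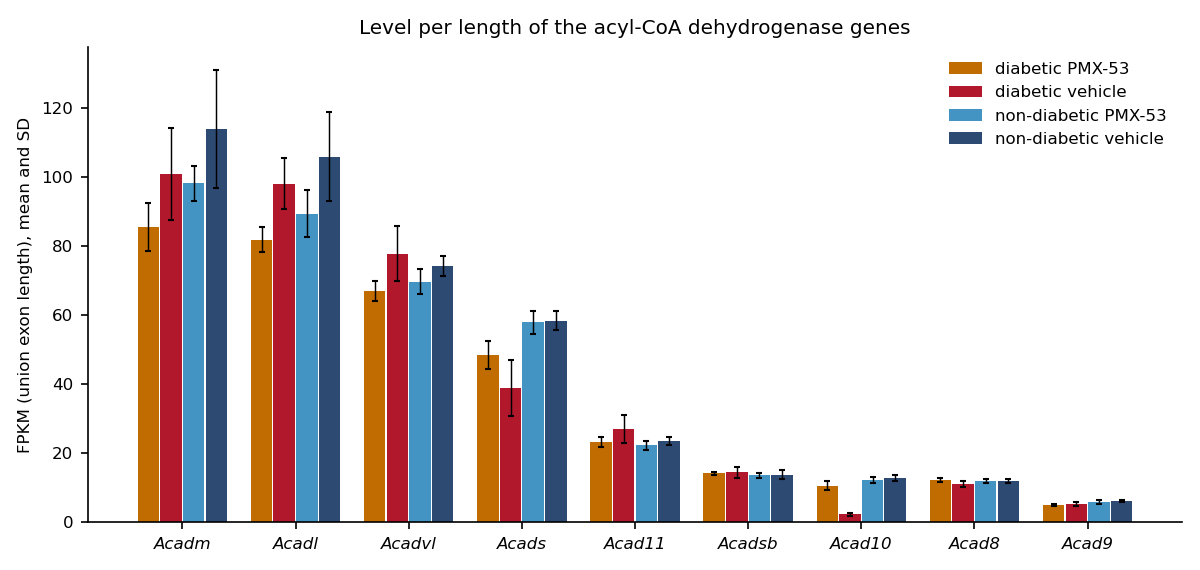
Level per length (FPKM over union exon length, y axis from 0; bars are means and whiskers the SD over 6 libraries) of the 9 genes in the 4 groups, ordered by the level in non-diabetic vehicle mice. Acadm, Acadl, Acadvl and Acads form the upper part of the order, from 114 to 58.5 FPKM, and Acad9 is lowest at 6.28 FPKM.

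The first 3 members in the chain-length series take the longest fatty acids. Acadvl, on chromosome 11 (GRCm38, 70010183 to 70015411, minus strand), encodes the very-long-chain enzyme of the inner mitochondrial membrane. Its lowest, median and highest levels were 170, 183 and 189 normalized CPM in diabetic PMX-53 mice, against 178, 211 and 240 in diabetic vehicle mice, so the groups overlapped. In diabetic mice Acadvl fell with PMX-53, by 13.8% (log2 fold change -0.21 ± 0.06 SE, adjusted p = 0.00572). Between diabetic and non-diabetic mice on vehicle (209 ± 21.1 and 200 ± 7.98 normalized CPM) the log2 difference was 0.07 ± 0.06 (adjusted p = 0.354), and it was -0.03 when libraries were scaled by their totals alone. Of the exon bases of Acadvl, 42.9% are shared with Dvl2 on the opposite strand. Dvl2 passed in none of the 5 comparisons (its log2 fold change with PMX-53 in diabetic mice was -0.12 ± 0.09, adjusted p = 0.350), and since the strand setting of the counting is not given in the sources used here, reads of the 2 genes may not be separable.

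Acadl, the long-chain enzyme on chromosome 1 (66830839 to 66863277, minus strand), had 154, 163 and 176 normalized CPM (lowest, median, highest) in diabetic PMX-53 mice, against 178, 197 and 212 in diabetic vehicle mice. No library of one group reached the other, which held for 2 of the 9 genes, Acadl and Acad10, and for 8.20% of all genes in this comparison. Acadl fell in diabetic mice given PMX-53, by 16.6% (log2 fold change -0.26 ± 0.07, adjusted p = 0.00474). In non-diabetic mice, levels of 163 to 202 normalized CPM on PMX-53 and 195 to 263 on vehicle gave a difference of like size (log2 -0.25 ± 0.07) that did not pass the edgeR test (adjusted p = 0.368). The effect of PMX-53 in diabetic minus non-diabetic mice was -0.02 on the log2 scale, with a 95% interval from -0.21 to 0.18.

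Acadm encodes the medium-chain enzyme, whose loss in people is a common inborn error of fatty acid oxidation. The gene lies on chromosome 3 (153922357 to 153944632, minus strand). Its mRNA stood at 313, 329 and 387 normalized CPM in diabetic PMX-53 mice and at 343, 391 and 485 in diabetic vehicle mice, with overlapping groups. Acadm fell with PMX-53 by 15.2% (log2 fold change -0.24 ± 0.08, adjusted p = 0.0365), and the call was kept in 16 of the 24 fits that each left out 1 library. It was lost without diabetic vehicle replicate 2 (-0.24), 3 (-0.23) or 4 (-0.17) and without diabetic PMX-53 replicate 1 (-0.22), 2 (-0.24), 4 (-0.24), 5 (-0.23) or 6 (-0.22). With only the libraries of the 2 groups in the fit it was -0.24 and did not pass (adjusted p = 0.0534). In diabetic against non-diabetic mice on vehicle (394 ± 51.9 and 447 ± 67.2 normalized CPM) the log2 difference of -0.18 ± 0.08 missed the threshold (adjusted p = 0.0893). It was -0.09 without non-diabetic vehicle replicate 5, and -0.25 and called without diabetic vehicle replicate 4. With library totals alone it was -0.29 and called.

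The calls of Acadvl, Acadl and Acadm with PMX-53 in diabetic mice depended on the scaling between libraries. With library totals alone the median log2 fold change of all genes was 0.119, against 0.003 with scaling, the log2 fold changes became -0.10, -0.14 and -0.12, and none of the 3 passed; relative to that median they were -0.22, -0.26 and -0.24.

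Acadm and Acadvl are also the pair of members whose promoters hold AGGTCA, the core site of many nuclear receptors, searched on both strands from 250 bases before to 50 after the RefSeq gene start. The core site was found in 2 of the 8 member promoters that could be matched and in 16.3% of all 32851 mouse promoters in the table. The longer motif TCAAGGTCA, the site of estrogen-related receptors, was in 0 of 8 member promoters and 0.423% of all, and the core site repeated with 1 base between, the form bound by PPAR-alpha with its partner, in 0 of 8 and 0.0396%. Both longer motifs contain the core site. Also searched were GGGCGG, the GC box, in 5 of 8 member promoters and 35.7% of all, and CCAAT, in 2 of 8 and 37.4%. These letters are a description of the windows. Sequences are RefSeq's, build GRCm38.p6, 5′ to 3′ on the gene's strand, with the core site in capitals; in Acadm it reads on the opposite strand, 249 bases before the start, and in Acadvl on the gene's strand, 87 bases before it. The Acadm window is chr3:153944594-153944893 and the Acadvl window chr11:70015379-70015678, both on the minus strand.
Acadm: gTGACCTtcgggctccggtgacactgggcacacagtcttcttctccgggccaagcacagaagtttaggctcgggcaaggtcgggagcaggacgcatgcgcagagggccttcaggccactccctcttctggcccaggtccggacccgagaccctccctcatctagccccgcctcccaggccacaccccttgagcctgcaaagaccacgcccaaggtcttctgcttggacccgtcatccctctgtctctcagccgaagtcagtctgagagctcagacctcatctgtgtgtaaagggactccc
Acadvl: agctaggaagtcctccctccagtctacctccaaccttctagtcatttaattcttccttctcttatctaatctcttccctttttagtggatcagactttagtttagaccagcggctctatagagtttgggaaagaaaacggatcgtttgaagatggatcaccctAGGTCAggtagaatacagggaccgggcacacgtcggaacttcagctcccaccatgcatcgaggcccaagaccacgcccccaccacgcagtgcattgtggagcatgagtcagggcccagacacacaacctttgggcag

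Acads encodes the short-chain enzyme, which acts on the last rounds of beta-oxidation, and lies on chromosome 5 (115110299 to 115119346, minus strand). It had 94.7, 110 and 119 normalized CPM (lowest, median, highest) in diabetic PMX-53 mice and 66.8, 84.9 and 110 in diabetic vehicle mice. On the non-diabetic side it had 125, 130 and 146 normalized CPM with PMX-53 and 125, 133 and 140 with vehicle. Every diabetic library, treated or not, was below every non-diabetic one. On PMX-53 the diabetic and non-diabetic groups did not overlap for 1 of the 9 genes, Acads, and for 6.00% of all genes. There Acads did not pass the edgeR test (log2 fold change -0.26 ± 0.09, adjusted p = 0.0723). With only the libraries of the 2 groups in the fit it was -0.26 and called (adjusted p = 0.00594). A call was also made without diabetic vehicle replicate 1, 3 or 4 (-0.26 each). Acads fell with diabetes on vehicle by 33.5% (log2 fold change -0.59 ± 0.09, adjusted p = 1.35e-05), and it was 1 of 2 member genes, with Acad10, whose groups did not overlap in that comparison (14.9% of all genes).

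In diabetic mice Acads rose with PMX-53 by 24.7% (0.32 ± 0.09, adjusted p = 0.0107). When only the libraries of the 2 groups entered the fit, the estimate was the same (0.32) and the call was lost (adjusted p = 0.0650). Within the diabetic vehicle group, replicates 3 and 4, at 108 and 110 normalized CPM, lay inside the range of the diabetic PMX-53 mice, and the remaining libraries were between 66.8 and 92.6. Summed levels of 6 markers of the last segment of the proximal tubule (S3) ran in the same order as Acads, at 991 to 1185 normalized CPM in diabetic PMX-53 mice, 517 to 1320 in diabetic vehicle mice, 1608 to 2023 in non-diabetic PMX-53 mice and 1756 to 2021 in non-diabetic vehicle mice. In diabetic against non-diabetic vehicle mice 3 of these markers fell and 1 rose, where 40.3% of all genes were called. None of the 6 was at 0. In diabetic mice PMX-53 raised 3 of the 6 and lowered 3, where 27.3% of all genes were called. Their part in the difference of Acads was not tested.

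The next 2 members act on branched chains from amino acids. Acad8 (chromosome 9, 26974135 to 26999566, minus strand) encodes isobutyryl-CoA dehydrogenase of valine breakdown, and Acadsb (chromosome 7, 131410601 to 131448944, plus strand) the short/branched-chain enzyme of isoleucine breakdown. Acad8 had 48.3, 50.2 and 53.9 normalized CPM in diabetic PMX-53 mice, against 41.1, 45.8 and 51.6 in diabetic vehicle mice, and rose by 10.2% (log2 fold change 0.14 ± 0.05, adjusted p = 0.0459). That is the weakest of the 7 calls with PMX-53 in diabetic mice. It was kept in 11 of 24 fits with 1 library left out, and lost without diabetic PMX-53 replicate 1, 2, 4 or 5, diabetic vehicle replicate 1, 2, 5 or 6, non-diabetic PMX-53 replicate 3, 4 or 5, or non-diabetic vehicle replicate 2 or 3, at log2 fold changes of 0.11 to 0.15. With only the libraries of the 2 groups in the fit it was 0.14 and did not pass (adjusted p = 0.0996). Diabetes on vehicle gave -0.11 ± 0.05 (adjusted p = 0.0802), with a call at -0.15 without diabetic vehicle replicate 4 and at -0.14 without non-diabetic vehicle replicate 4. With library totals alone it was -0.21 and called.

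Acadsb was the most even member, with group means of 102 ± 3.07 normalized CPM in diabetic PMX-53 mice, 104 ± 10.9 in diabetic vehicle mice, 97.5 ± 4.51 in non-diabetic PMX-53 mice and 99.2 ± 9.01 in non-diabetic vehicle mice. It passed in none of the 5 comparisons. The 95% intervals of its log2 fold changes ran from -0.05 to 0.20 for diabetes on vehicle and from -0.16 to 0.10 for PMX-53 in diabetic mice.

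Ivd, Gcdh and Acad12, relatives outside the 9, fell with diabetes on vehicle (3 of 3), where 40.3% of all genes were called and 19.9% were lower. Without non-diabetic vehicle replicate 5 the count was 2 of 3. Ivd, the isovaleryl-CoA dehydrogenase of leucine breakdown, had 196, 241 and 254 normalized CPM in diabetic PMX-53 mice, 142, 164 and 243 in diabetic vehicle mice and 283, 322 and 338 in non-diabetic vehicle mice. Its order of groups was that of Acads. It fell with diabetes on vehicle (-0.84 ± 0.09, adjusted p = 1.08e-07) and in diabetic mice it rose with PMX-53 (0.39 ± 0.09, adjusted p = 0.00232). Gcdh, the glutaryl-CoA dehydrogenase of lysine breakdown, fell by 9.47% with diabetes on vehicle (-0.14 ± 0.05, adjusted p = 0.0383).

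Acad9 encodes an assembly factor of respiratory complex I that also has dehydrogenase activity towards long chains (chromosome 3, 36065979 to 36092853, plus strand). Its mRNA was 39.7, 42.7 and 51.7 normalized CPM in diabetic vehicle mice, against 48.3, 51.8 and 54.0 in non-diabetic vehicle mice, and fell by 15.3% (log2 fold change -0.24 ± 0.06, adjusted p = 0.00401). On PMX-53, diabetic mice had 37.9 to 43.9 and non-diabetic mice 41.6 to 53.6 normalized CPM. There Acad9 fell by 13.5% (-0.21 ± 0.06, adjusted p = 0.0385). This was the 1 member of 9 called for diabetes on PMX-53, where 10.0% of all genes were called.

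The Acad9 call on PMX-53 was kept in 17 of 24 fits with 1 library left out. It was lost without diabetic PMX-53 replicate 1 (-0.19), 2 (-0.21), 5 (-0.20) or 6 (-0.21) and without non-diabetic PMX-53 replicate 1 (-0.17), 3 (-0.18) or 6 (-0.20). PMX-53 in diabetic mice gave -0.08 ± 0.06 (adjusted p = 0.360), with a 95% interval from -0.22 to 0.05. Of 13 other complex I assembly factors tested, 4 fell and 1 rose with diabetes on vehicle (median log2 fold change -0.12, against -0.001 over all genes); 5 of 13 is near the 40.3% of all genes called. Of those that fell, Tmem126b (-0.33 ± 0.07, adjusted p = 2.48e-04) and Ndufaf1 (-0.35 ± 0.08, adjusted p = 0.00140) had the smallest p. In diabetic mice, PMX-53 raised 1 of the 13, Tmem186, at 0.19 ± 0.07 (adjusted p = 0.0466). That count was 4 with library totals alone, 0 with a replicate block, 2 without diabetic vehicle replicate 4 and 2 without non-diabetic vehicle replicate 5.

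Acad10 and Acad11 encode proteins in which an acyl-CoA dehydrogenase domain is joined to a kinase-like domain. Acad10 lies on chromosome 5 (121621026 to 121660514, minus strand). It had 57.1, 61.9 and 79.6 normalized CPM (lowest, median, highest) in diabetic PMX-53 mice and 11.6, 15.1 and 16.4 in diabetic vehicle mice. Non-diabetic mice had 67.7, 73.8 and 82.7 normalized CPM with PMX-53 and 70.4, 78.2 and 82.9 with vehicle. The diabetic vehicle libraries were thus far below all others. Of the diabetic PMX-53 libraries, replicate 4 at 79.6 lay within the non-diabetic range, and the rest, at up to 65.9, lay below it.

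Acad10 fell 5.37-fold with diabetes on vehicle (log2 fold change -2.43 ± 0.09, adjusted p = 2.40e-17), and was 4.48-fold higher with PMX-53 than with vehicle in diabetic mice (2.16 ± 0.09, adjusted p = 4.36e-16). In non-diabetic mice the effect of PMX-53 was -0.06 ± 0.08 (adjusted p = 0.935), with a 95% interval from -0.22 to 0.11. The effect of PMX-53 in diabetic minus non-diabetic mice was 2.22 ± 0.12 on the log2 scale (adjusted p = 4.45e-13), the 1 call among the 9 genes in an interaction test that called 9.42% of all genes. On PMX-53, diabetic against non-diabetic mice gave -0.21 ± 0.08 (adjusted p = 0.100), and without diabetic PMX-53 replicate 4, at 79.6 normalized CPM the highest of its group, -0.28 and a call. For Acad10 the calls for diabetes on vehicle, for PMX-53 in diabetic mice and for the interaction were kept under each of the alternatives run.

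The start of Acad10 faces that of Brap, which encodes a BRCA1-binding ubiquitin ligase, with 48 bases between the annotated ends. The window around the Acad10 start (RefSeq, GRCm38.p6, chr5:121660461-121660760, minus strand) is shown because 198 of its 300 bases lie inside Brap, and the capitals mark the 48 bases between both genes.
Acad10: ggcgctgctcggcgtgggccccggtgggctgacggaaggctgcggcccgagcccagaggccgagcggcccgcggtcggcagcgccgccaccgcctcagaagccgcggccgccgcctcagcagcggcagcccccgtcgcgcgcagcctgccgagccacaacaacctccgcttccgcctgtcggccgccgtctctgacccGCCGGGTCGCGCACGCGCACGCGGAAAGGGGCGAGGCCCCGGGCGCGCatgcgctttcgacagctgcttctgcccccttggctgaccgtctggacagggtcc
Brap had 104 to 120 normalized CPM in diabetic PMX-53 mice, 106 to 136 in diabetic vehicle mice and 114 to 140 in non-diabetic vehicle mice. It passed in none of the 5 comparisons, at 0.02 ± 0.06 for diabetes on vehicle (adjusted p = 0.768) and -0.12 ± 0.06 for PMX-53 in diabetic mice (adjusted p = 0.102).

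On the other side, 2088 bases away, lies Acad12, a close relative of Acad10 in the mouse. Of the 6081 distinct 31-base words in Acad10 transcripts, 1390 also occur in Acad12, so the counting may have divided some reads between them, and the values of both carry that uncertainty. The longest run shared by their coding sequences (GENCODE M21, GRCm38) is 195 bases, from base 2078 to 2272 of 3207 in Acad10 and from base 551 to 745 of 1665 in Acad12, and is shown because a read inside it cannot be assigned to one gene.
Acad10 and Acad12: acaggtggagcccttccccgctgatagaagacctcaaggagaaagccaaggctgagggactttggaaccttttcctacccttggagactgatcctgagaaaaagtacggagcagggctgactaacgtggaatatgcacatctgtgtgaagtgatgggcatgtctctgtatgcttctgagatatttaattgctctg
Acad12 had 25.2 to 30.1 normalized CPM in diabetic PMX-53 mice, 21.9 to 30.2 in diabetic vehicle mice and 30.7 to 34.4 in non-diabetic vehicle mice. It fell with diabetes on vehicle (-0.46 ± 0.07, adjusted p = 3.66e-06) and in diabetic mice rose with PMX-53 (0.24 ± 0.07, adjusted p = 0.00877), as Acad10 did, by smaller amounts.

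Nnt, Wdfy1 and Ide were chosen because earlier results of these data had shown the diabetic vehicle libraries apart from the others there, and their values stand beside those of Acad10 as a description. Nnt, the mitochondrial transhydrogenase that is known to carry a deletion in the C57BL/6J substrain, had 109 to 121 normalized CPM in diabetic PMX-53 mice, 242 to 272 in diabetic vehicle mice, 101 to 110 in non-diabetic PMX-53 mice and 101 to 112 in non-diabetic vehicle mice. Wdfy1, an endosomal protein gene, had 26.1 to 33.2 normalized CPM in diabetic PMX-53 mice, 66.6 to 79.6 in diabetic vehicle mice, 26.1 to 29.9 in non-diabetic PMX-53 mice and 27.6 to 31.5 in non-diabetic vehicle mice. Ide, which encodes insulin-degrading enzyme, had 127 to 169 normalized CPM in diabetic PMX-53 mice, 62.2 to 76.5 in diabetic vehicle mice, 127 to 168 in non-diabetic PMX-53 mice and 111 to 164 in non-diabetic vehicle mice.

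At Acad10 and at these 3 genes the 6 diabetic vehicle libraries did not overlap with the 18 others. A trait of the mice that made up the diabetic vehicle group, such as a substrain, cannot be told apart in this design from effects on Acad10 of diabetes and PMX-53. Each comparison in which Acad10 was called rests on that group. The same limit holds for every other gene called for diabetes on vehicle, for PMX-53 in diabetic mice or in the interaction.

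**Figure D3:**
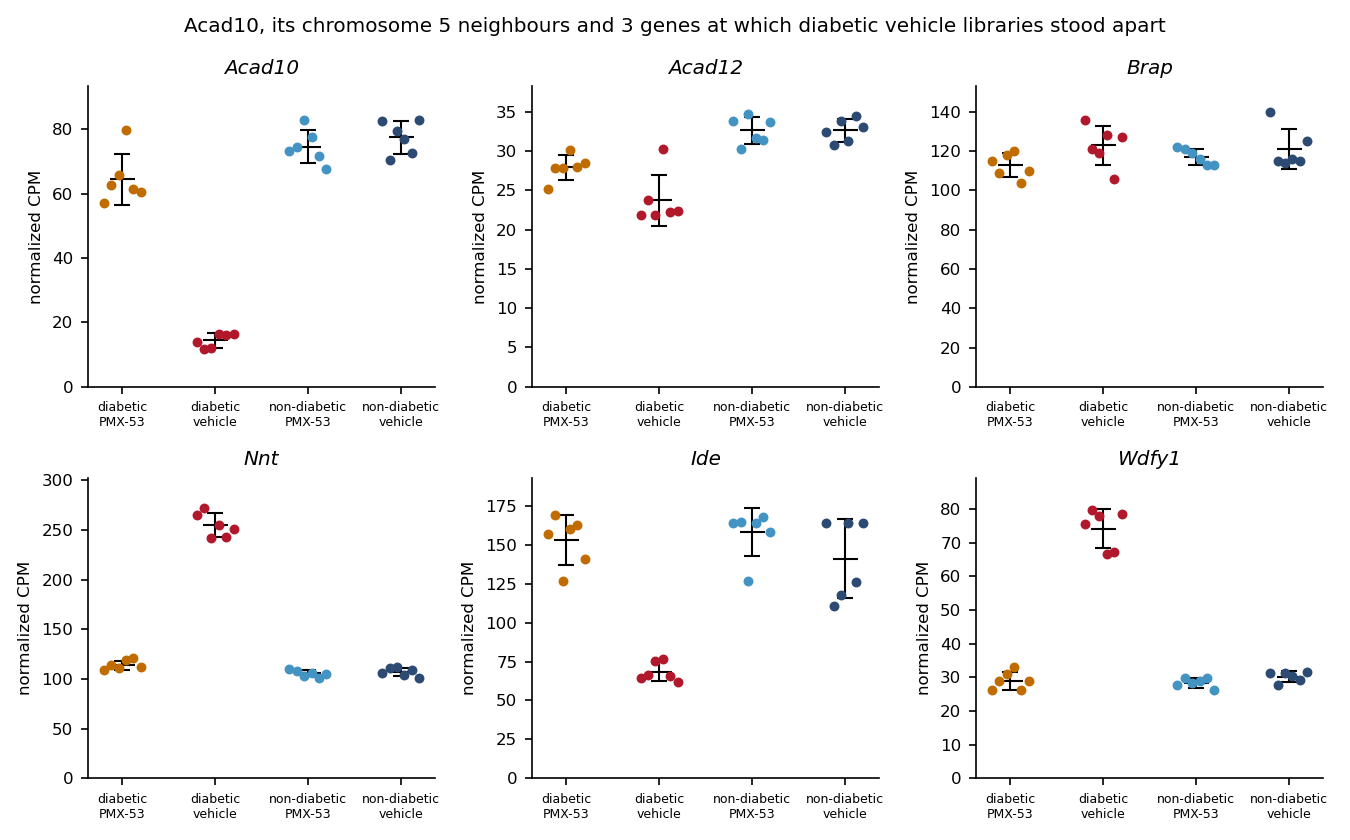
Normalized CPM (y axes from 0) by library (points), with group means and SD (bars), for Acad10, its neighbours Acad12 and Brap on chromosome 5, and Nnt, Ide and Wdfy1. Diabetic vehicle libraries lie apart from the other 3 groups at Acad10 (11.6 to 16.4), Nnt (242 to 272), Ide (62.2 to 76.5) and Wdfy1 (66.6 to 79.6), and within the range of the others at Brap.

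Acad11 lies on chromosome 9 (104063377 to 104127725, plus strand). It had 214, 223 and 247 normalized CPM in diabetic PMX-53 mice, 223, 257 and 330 in diabetic vehicle mice and 212, 233 and 242 in non-diabetic vehicle mice. Its groups overlapped in all comparisons, and its direction was the reverse of that of Acad10. Acad11 rose with diabetes on vehicle by 14.9% (0.20 ± 0.07, adjusted p = 0.0265) and in diabetic mice fell with PMX-53 by 14.6% (-0.23 ± 0.07, adjusted p = 0.0190).

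Both Acad11 calls were lost without diabetic vehicle replicate 3, at 330 normalized CPM the highest library, with log2 fold changes of 0.14 and -0.16. The call for diabetes was also lost without diabetic vehicle replicate 6 (0.17) and without non-diabetic vehicle replicate 4 (0.19) or 6 (0.18). Both were lost with library totals alone (0.10 and -0.11). With only the libraries of the 2 groups in the fit, the estimates stayed at 0.20 and -0.23 and neither passed (adjusted p = 0.0769 and 0.0657). Ackr4 on the opposite strand shares 4.9% of the exon bases of Acad11.

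**Figure D4:**
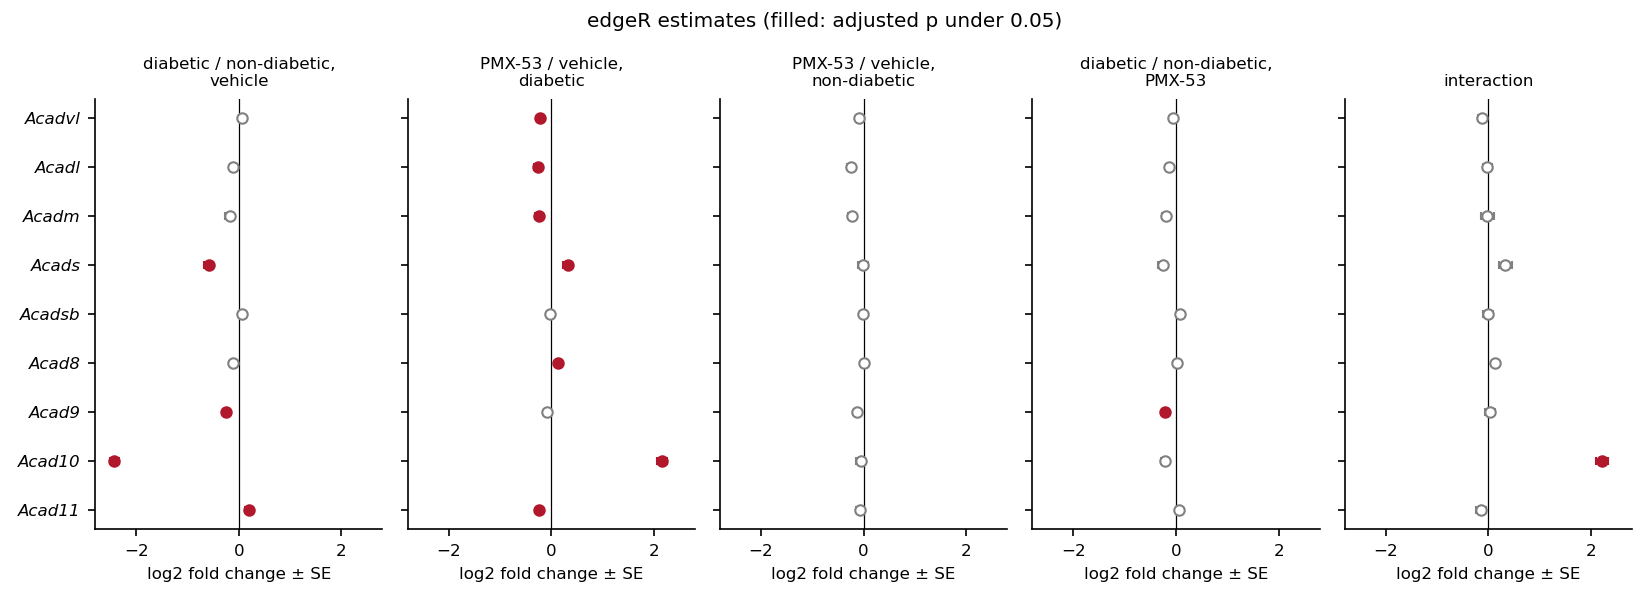
Log2 fold changes (x axes, ± SE) of the 9 genes in the 5 comparisons, with the groups on top of and below each ratio in the panel title and the interaction (the effect of PMX-53 in diabetic minus non-diabetic mice) last; filled points passed an adjusted p of 0.05. Acad10 lies near -2.43 for diabetes on vehicle and near 2.16 for PMX-53 in diabetic mice, while the other 8 genes lie between -0.59 and 0.33 in each comparison.

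In non-diabetic mice, PMX-53 changed 0 of the 9 dehydrogenase genes and 0% of all genes by edgeR's adjusted test. At an unadjusted p under 0.05 there were 2 of the 9, Acadl and Acadm (-0.25 and -0.22), against 7.22% of all genes, and DESeq2 called 4 genes, none of them a member. Acad10 in these mice averaged 74.6 ± 5.14 normalized CPM on PMX-53 and 77.5 ± 5.17 on vehicle. The median log2 fold change of the 9 genes was -0.08 and that of all genes 0.000. The corresponding medians of the 9 genes were -0.11 for diabetes on vehicle, -0.08 for PMX-53 in diabetic mice and -0.13 for diabetes on PMX-53, against -0.001, 0.003 and -0.003 over all genes.

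For Acads, the effect of PMX-53 in diabetic minus non-diabetic mice was 0.33 ± 0.13 (adjusted p = 0.105), with a 95% interval from 0.06 to 0.60. It passed without diabetic vehicle replicate 3 (0.39) or 4 (0.40), which brought the members called in the interaction to 2. Without diabetic vehicle replicate 4 the interaction called 2242 genes in all, against 1489 with it. The remaining 7 members had interaction estimates between -0.15 and 0.13 that did not pass.

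Genes that act before and after the dehydrogenases were read from lists chosen with earlier results of these data known. Beside their counts stand the 40.3% of all genes called for diabetes on vehicle and the 27.3% called for PMX-53 in diabetic mice. Of 9 genes of the steps after the dehydrogenase, diabetes on vehicle raised 5 and lowered 0 (median log2 fold change 0.17), and PMX-53 in diabetic mice raised 0 and lowered 6 (median -0.40). For diabetes on vehicle 1 of the 9 was lower with library totals alone (4 higher), with a replicate block (5 higher) and without diabetic vehicle replicate 4 (4 higher). Hadha, the alpha subunit of the trifunctional protein, had 146 to 161 normalized CPM in diabetic PMX-53 mice, 176 to 248 in diabetic vehicle mice and 134 to 160 in non-diabetic vehicle mice. It rose with diabetes on vehicle (0.57 ± 0.07, adjusted p = 6.09e-07) and in diabetic mice fell with PMX-53 (-0.47 ± 0.07, adjusted p = 2.42e-05). Eci1, an enoyl-CoA isomerase for unsaturated chains, fell by 40.7% in diabetic mice given PMX-53 (-0.76 ± 0.09, adjusted p = 2.60e-06), and its interaction estimate was -0.55 ± 0.13 (adjusted p = 0.00926). Acadvl, Acadl and Acadm, which feed these steps, did not pass for diabetes on vehicle in the main fit. With library totals alone Acadl (-0.21) and Acadm (-0.29) were called lower.

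Among 11 genes of fatty acid activation and the carnitine shuttle, diabetes on vehicle raised 3 and lowered 1, and PMX-53 in diabetic mice raised 1 and lowered 3. The 4 of 11 called for diabetes are near the share of all genes. Acsl5, an acyl-CoA synthetase, rose (0.46 ± 0.06, adjusted p = 3.84e-07) and Slc27a2, a very-long-chain synthetase and transporter, fell (-0.56 ± 0.07, adjusted p = 6.36e-07) with diabetes on vehicle. Of the 3 genes for the acceptors of the dehydrogenases' electrons, 1 passed. Etfa fell by 9.26% with diabetes on vehicle (-0.14 ± 0.05, adjusted p = 0.0244), a call lost without non-diabetic vehicle replicate 5, and Etfb and Etfdh did not pass. Of 5 genes of riboflavin uptake and FAD synthesis, 3 fell and 1 rose with diabetes on vehicle. Flad1, the FAD synthase, was at -0.32 ± 0.07 (adjusted p = 4.83e-04) and Rfk, the riboflavin kinase, at 0.28 ± 0.05 (adjusted p = 6.63e-05).

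In branched-chain amino acid breakdown, which Acad8 and Acadsb serve, diabetes on vehicle lowered 9 of 19 genes and raised 2, and PMX-53 in diabetic mice raised 6 and lowered 2. Acat1, the acetoacetyl-CoA thiolase of isoleucine and ketone body breakdown, had 290 to 354 normalized CPM in diabetic PMX-53 mice, 207 to 327 in diabetic vehicle mice and 454 to 504 in non-diabetic vehicle mice. It fell with diabetes on vehicle (-0.95 ± 0.08, adjusted p = 2.47e-09) and in diabetic mice rose with PMX-53 (0.37 ± 0.08, adjusted p = 0.00154). Of 10 genes of peroxisomal beta-oxidation tested, 3 fell and 2 rose with diabetes on vehicle. In diabetic mice, PMX-53 raised 1 of the 10 and lowered 1.

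The regulators of fatty acid oxidation gave mixed counts, 3 of 10 higher and 1 lower with diabetes on vehicle and 2 higher and 2 lower with PMX-53 in diabetic mice. Without non-diabetic vehicle replicate 5 the count for diabetes was 1 higher and 1 lower. Ppargc1a, a coactivator of mitochondrial genes, had 92.9 to 116 normalized CPM in diabetic PMX-53 mice, 114 to 170 in diabetic vehicle mice and 80.0 to 98.9 in non-diabetic vehicle mice. Its log2 fold change was 0.65 ± 0.08 for diabetes on vehicle (adjusted p = 4.07e-07) and -0.38 ± 0.08 for PMX-53 in diabetic mice (adjusted p = 7.38e-04). Ppara, the fatty acid receptor, was at -0.12 ± 0.09 for diabetes on vehicle (adjusted p = 0.304) and fell in diabetic mice given PMX-53 (-0.30 ± 0.09, adjusted p = 0.0159).

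Of 14 PPAR-alpha target genes tested, which include Ehhadh and Cpt1a from the lists above, diabetes on vehicle raised 6 and lowered 2, and PMX-53 in diabetic mice raised 0 and lowered 9. Acot3, a peroxisomal thioesterase gene, had 9.74 to 15.7 normalized CPM in diabetic PMX-53 mice, 19.7 to 64.6 in diabetic vehicle mice and 5.59 to 16.6 in non-diabetic vehicle mice. Its groups did not overlap in either comparison, at -1.82 ± 0.24 (adjusted p = 1.72e-05) for PMX-53 in diabetic mice and 1.89 ± 0.24 (adjusted p = 3.28e-06) for diabetes on vehicle. With library totals alone, the counts for diabetes on vehicle were 1 higher and 1 lower in activation and the shuttle, 0 and 6 in peroxisomal beta-oxidation, 0 and 10 in branched-chain breakdown, 0 and 3 in FAD supply, 1 and 2 among the regulators and 4 and 2 among the PPAR-alpha targets. Those for PMX-53 in diabetic mice were then 1 higher and 1 lower in activation and the shuttle, 8 and 0 in branched-chain breakdown, 4 and 1 among the regulators and 0 and 7 among the PPAR-alpha targets. No gene of any of these lists passed when non-diabetic mice received PMX-53. Even so, the 14 PPAR-alpha targets then had a median log2 fold change of -0.36, where that of all genes was 0.000. In diabetic mice it was -0.89. Activation and the shuttle had medians of -0.13 without and -0.10 with diabetes, the later steps -0.09 and -0.40, and the regulators 0.05 and -0.03. The interaction called 9.42% of all genes. It called 2 of the 14 targets, 3 of the 9 later steps and 1 of the 10 regulators, all lower. None of the 11 shuttle and activation genes passed, and 3 of the 19 genes of branched-chain breakdown did, all higher. With library totals alone these counts were 1 for the later steps and 6 for branched-chain breakdown. With a replicate block they were 2 for the later steps, 1 for the targets and 4 for branched-chain breakdown.

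**Figure D5:**
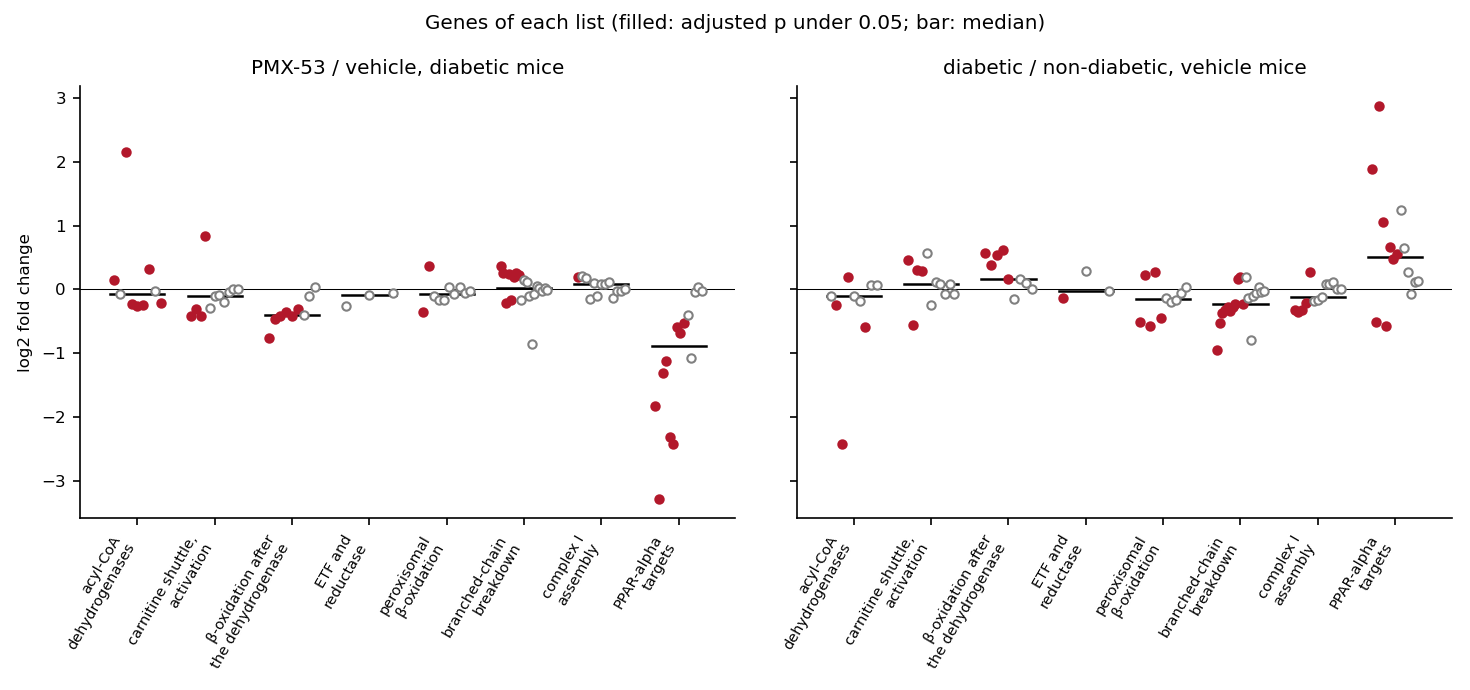
Log2 fold changes (y axis) of single genes in 8 groups, for PMX-53 over vehicle in diabetic mice (left) and diabetic over non-diabetic mice on vehicle (right); filled points passed an adjusted p of 0.05 and bars are medians. The steps after the dehydrogenase lie at a median of -0.40 on the left and 0.17 on the right, and the PPAR-alpha targets at -0.89 and 0.51.

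The genes whose levels were most like those of the members called in at least 2 comparisons were ranked by Pearson's r of log2 CPM over the 24 libraries, which share their group structure, so the values are a description. Acad10 was most like Arhgap10 (r = 0.968), Tmprss9 (0.953) and Timd2 (0.948). After removal of the group means its r with these genes was 0.36, 0.49 and 0.44. Acads was most like Pde6a and Proc (r = 0.969 each) and Folr1 (0.963), with 0.89, 0.91 and 0.91 after removal of the group means. Acad9 was most like Acot12 (0.884), Mpv17l (0.858) and Etfa (0.849), and Acad11 like Hsd17b4 (0.864), Eci1 (0.863) and Acaa2 (0.858), of which Hsd17b4 acts in peroxisomal and the other two in mitochondrial beta-oxidation.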

How the data were processed

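Libraries were made from 200 ng of total RNA after depletion of ribosomal RNA, with a directional kit, per the labels' protocols. The authors deposited whole-number read counts per gene for 24 libraries, not normalized, per the file headers. The submitters' processing notes name bcl2fastq 2.20.0.422, STAR and GRCm38. How reads were assigned to genes, and whether by strand, is not given in the sources used here. Of 48526 IDs, 48144 matched GENCODE M21, which gave positions and lengths, and 0 rows named no gene.

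The analysis of counts used edgeR 4.0.16 (R 4.3.3): default expression filter (15808 genes), TMM scaling, 1 coefficient per group over all 24 libraries, robust quasi-likelihood F test, Benjamini-Hochberg adjustment, threshold 0.05. The SE is the log2 fold change divided by the square root of F, and 95% intervals use 20 residual degrees of freedom. Levels are normalized CPM, and FPKM over union exon length. limma 3.58.1 and DESeq2 1.42.0 served as alternatives. The model was also run on counts simulated from its own fitted levels and spread. That run held no trait shared by the mice of a group, so it cannot speak to one. Plots used matplotlib 3.10.9 (Python 3.11.15).

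The 9 members, the 11 pathway lists, the 12 marker lists and the tests were chosen with earlier results of these data known. Named genes are the members, up to 3 genes with the smallest p per list and comparison, genes of like pattern, nearest tested neighbours, and Nnt, Ide and Wdfy1; Ppara falls outside this rule and was chosen after its values were seen. Replicate numbers were taken as names: of 36 pairs of same-numbered libraries, 3 had a correlation of deviations over 0.1 (range -0.12 to 0.13). No pair of libraries of 1 group matched within counting noise (60 pairs, lowest chi-square 5.21 times its degrees of freedom). The labels give no batch. Promoter sequences matched 8 members; Acad9 was not among them. Protein sequences were not used here.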

Additional observations from a re-analysis of the deposited data

Results flagged for a closer look

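In 60 sets of 6 libraries (genes by group), 10 had a highest or lowest library set apart by Dixon's test at the 95% level, where 3.00 are expected by chance. Non-diabetic vehicle replicate 5 was set apart in this way, as the highest library of its group, for 3 members, with 263 normalized CPM for Acadl (others 195 to 215), 583 for Acadm (others 408 to 428) and 216 for Acadvl (others 195 to 197). Acadm was also apart in diabetic PMX-53 replicate 3, at 387 normalized CPM (others 313 to 334). Acads had 146 in non-diabetic PMX-53 replicate 1 (others 125 to 132), and Acadsb had 96.0 in diabetic PMX-53 replicate 1 (others 102 to 104). Among the relatives and other genes, Gcdh had 260 in diabetic vehicle replicate 4 (others 213 to 229) and 252 in non-diabetic PMX-53 replicate 1 (others 227 to 236). Acad12 had 30.2 in diabetic vehicle replicate 4 (others 21.9 to 23.7), and Ide had 127 in non-diabetic PMX-53 replicate 3 (others 158 to 168).

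By edgeR's interaction test with adjustment over all genes, 5 of 15 genes looked at passed, where 9.42% of all genes were called. The 15 are the members, Ivd, Gcdh, Acad12, Nnt, Ide and Wdfy1. Nnt, Ide and Wdfy1 were chosen because the diabetic vehicle libraries were known to stand apart there. Their calls therefore followed from the choice and are given as a description. The log2 difference, diabetic minus non-diabetic, was 2.22 ± 0.12 for Acad10 (adjusted p = 4.45e-13), 0.45 ± 0.13 for Ivd (adjusted p = 0.0277), -1.13 ± 0.06 for Nnt (adjusted p = 4.45e-13), 1.00 ± 0.14 for Ide (adjusted p = 9.61e-05) and -1.26 ± 0.09 for Wdfy1 (adjusted p = 9.95e-11). Of the pathway genes and genes of like pattern named in the report, the difference also passed for Eci1 (-0.55), Hadha (-0.39), Acat1 (0.48), Ppargc1a (-0.51), Acot3 (-1.64), Hsd17b4 (-0.26), Arhgap10 (0.49), Tmprss9 (3.50), Timd2 (0.92) and Proc (0.57). Each rests on the diabetic vehicle libraries.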

How the results depend on the processing

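With 1 library left out at a time, 1038 of 1080 log2 fold changes of the members kept their side of the threshold. Of the rest, 33 lost and 9 gained a call. Under the other settings 416 of 441 did so, and 15 lost and 10 gained a call. Where the gene was called in the main fit or the alternative, 0 changed direction. Estimates called in neither could change sign, as for Acad9 with PMX-53 in diabetic mice (-0.08, against 0.04 with library totals alone). Acad10 (diabetes on vehicle, PMX-53 in diabetic mice, interaction) and Acads and Acad9 (diabetes on vehicle) kept their calls throughout. With library totals alone the median of all genes was -0.095 for diabetes on vehicle and 0.119 for PMX-53 in diabetic mice and for the interaction. The share of calls that were higher was then 31.2, 79.5, 65.7 and 79.3% for diabetes on vehicle, PMX-53 in diabetic mice, diabetes on PMX-53 and the interaction, against 50.7, 50.7, 54.9 and 49.5%. The members called with PMX-53 in diabetic mice numbered 3 (3 higher) with library totals alone and 3 (1 higher, 2 lower) in a fit of only the 2 groups, against 7. For diabetes on PMX-53, genes called numbered 871 with library totals alone and 2560 with limma voom, against 1587, and members 0, 4, 3 and 0 with library totals, voom, only the groups compared and libraries thinned to the smallest total. Members called there ranged from 0 to 2 with 1 library left out. In the interaction, members numbered 2 with library totals and with voom, and 1 to 2 with 1 library left out, and genes 1022 to 2242. For PMX-53 in non-diabetic mice 1 gene was called with no filter and 4 with DESeq2. The replicate numbers share only a number, so the block is given once: with a replicate block 6221, 4136, 0, 1483 and 1344 genes were called in the 5 comparisons (diabetes on vehicle, PMX-53 in diabetic mice, PMX-53 in non-diabetic mice, diabetes on PMX-53, interaction), and members 4, 6, 0, 1 and 1, with Acad8 (0.14) losing its call with PMX-53 in diabetic mice. The cause of these changes was not tested. The interaction needs all 4 groups and has no fit of only the groups compared. The members had at least 188 counts in each library.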
